A study of Mus musculus with 13 samples.

Results

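Interferon-stimulated genes were followed through the regulatory T cell (Treg) lineage of mice with and without c-Rel, a transcription factor of the NF-kB family. They were chosen by name, 39 in all, and 38 of the 39 were found among the 22048 genes that the 3 count tables share. Mx2 was found in the table of pre-Tregs, which lists 47729 genes. Gbp6 named 2 rows: the one with the reads (ENSMUSG00000104713) is called Gbp6 here, and the other (ENSMUSG00000079362), which overlaps it, had 0 to 2 counts in each library and was not tested.

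All 13 RNA-seq libraries came from C57BL6/J mice carrying the Foxp3rfp reporter, and the labels give neither age nor sex. The knockout (KO) groups were cRel-/-Foxp3rfp and the wild-type (WT) groups cRel+/+Foxp3rfp. Thymic pre-Tregs had 3 KO and 2 WT libraries, thymic de novo Tregs had 2 KO and 2 WT libraries, and tTregs taken from spleen (splenic Tregs) also had 2 KO and 2 WT libraries. Cells were enriched for CD4 with magnetic beads and then sorted by flow cytometry. The labels give the genotype of the mouse and name no promoter or cell type that limits the loss of c-Rel. No label says which libraries came from separate animals, so p-values measure the spread between libraries, which may be technical. Each stage has its own count table and the splenic stage its own tissue, so stage, table and, for spleen, tissue cannot be told apart. These are bulk samples, in which fewer cells of a type and less RNA per cell cannot be told apart.

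Interferons act in distinct pathways. Type I interferon binds its receptor chains Ifnar1 and Ifnar2, and the kinases Jak1 and Tyk2 then activate a complex that holds Stat2 and Irf9 and binds the interferon-stimulated response element (ISRE). Type II interferon, the product of Ifng, acts through its own receptor on gamma-activated sites (GAS). The induced genes include sensors of foreign nucleic acid, enzymes that block viral RNA, GTPases that attack the vacuoles of pathogens, and feedback genes such as Usp18. The thymic medulla is known to make interferon without infection, and c-Rel binds kB sites and is needed for normal Treg development.

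Promoters were examined because many of the genes moved together between stages. The genes were chosen as interferon-stimulated, so a high share with ISRE letters can follow from that choice. Whether the letters play a part in the changes between stages was not tested. RefSeq windows (GRCm38.p6) of 250 bases before to 50 after the gene start were matched for 28 of the 39 genes, in 33 windows. No window was matched for Usp18, Dhx58, Zbp1, Oas2, Mx1, Mx2, Gbp4, Gbp6, Parp9, Parp14 and Rtp4. Searched on both strands, the ISRE letters (GAAA, any 2 bases and GAAA) were in the windows of 17 of 28 genes (60.7%), against 3.99% of all 27025 genes with a window. The GAS letters (TTC, any 3 bases and GAA) were in 8 of 28 (28.6%), against 9.55% of all genes, and the kB letters (GGG, any 2 bases and TTTCC) in 0 of 28, against 1.89% of all genes; matches of the motifs may overlap each other. A match is a description of the letters and not a bound site.

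Stretches of 150 bases ending just before the RefSeq start are shown for 7 of the 28 matched genes, 5′ to 3′ on the gene's strand. The ISRE and GAS letters are in capitals. The 7 were chosen by name, and all are among the 17 genes with an ISRE match. Ifi44, Oasl2 and Ifi35, whose changes between stages are described below, had 0 ISRE matches in their windows. Isg15 (chr4:156200819-156200968, minus strand) held 3 overlapping ISRE matches, Ifit1 (chr19:34640739-34640888, plus strand) held 2 separate ones and Gbp3 (chr3:142559894-142560043, plus strand) 2 overlapping ones. Ifit3 (chr19:34583379-34583528, plus strand), Oas3 (chr5:120777660-120777809, minus strand) and Gbp2 (chr3:142620513-142620662, plus strand) held 1 each in the stretch, and Gbp7 (chr3:142530186-142530335, plus strand) held 2 GAS matches followed by 1 ISRE match.
Isg15: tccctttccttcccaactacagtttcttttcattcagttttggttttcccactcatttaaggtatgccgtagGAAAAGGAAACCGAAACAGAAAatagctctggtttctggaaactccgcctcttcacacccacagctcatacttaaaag
Ifit1: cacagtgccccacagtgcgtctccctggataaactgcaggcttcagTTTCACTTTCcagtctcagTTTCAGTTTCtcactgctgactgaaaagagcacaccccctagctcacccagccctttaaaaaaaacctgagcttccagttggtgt
Ifit3: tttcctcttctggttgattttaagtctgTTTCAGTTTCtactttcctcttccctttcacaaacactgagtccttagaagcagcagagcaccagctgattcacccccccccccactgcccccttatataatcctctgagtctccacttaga
Oas3: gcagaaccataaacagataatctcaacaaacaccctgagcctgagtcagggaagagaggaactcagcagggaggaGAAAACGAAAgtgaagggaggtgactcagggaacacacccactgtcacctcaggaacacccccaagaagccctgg
Gbp2: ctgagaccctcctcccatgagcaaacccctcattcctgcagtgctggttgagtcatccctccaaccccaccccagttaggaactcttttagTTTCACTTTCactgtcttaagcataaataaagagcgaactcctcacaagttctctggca
Gbp3: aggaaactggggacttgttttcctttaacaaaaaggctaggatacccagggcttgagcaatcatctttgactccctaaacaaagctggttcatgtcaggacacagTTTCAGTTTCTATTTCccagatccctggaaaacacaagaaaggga
Gbp7: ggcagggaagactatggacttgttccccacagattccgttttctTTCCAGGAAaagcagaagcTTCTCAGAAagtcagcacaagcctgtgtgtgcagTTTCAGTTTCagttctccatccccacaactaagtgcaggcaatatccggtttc

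Library totals were 13656304 to 29866696 counts in pre-Tregs, 25122095 to 28235996 in de novo Tregs and 32291272 to 35114430 in splenic Tregs. The interferon-stimulated genes had even counts only in KO pre-Treg replicate 1, while every other library held odd and even counts. Whether reads were counted more than once in that library was not tested, so its depth may be overstated and its counting noise understated. Rel itself had 54.9, 52.2 and 65.9 CPM (read counts scaled to a common library size after TMM normalization) in KO pre-Tregs, against 104 and 99.6 in WT pre-Tregs. It had 92.0 and 101 CPM in KO and 104 and 102 in WT de novo Tregs, and 43.4 and 46.1 CPM in KO and 47.2 and 56.6 in WT splenic Tregs, so reads on the gene do not check the genotype label. Foxp3, which defines Tregs, had 19.8, 49.1 and 45.5 CPM in KO and 32.5 and 101 in WT pre-Tregs, against at least 682 CPM in every library of the later stages. The 8 markers of erythroid cells and platelets summed to 111 CPM in WT de novo replicate 1, against 0.63 to 3.09 in the other 3 de novo libraries. Each pair of replicates within a stage and genotype differed by more than counting noise, so none was a copy of another in its group. Pairs across genotypes or stages are not covered by this check.

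Per length, the most abundant of the genes was Igtp, an immunity-related GTPase, at 234 CPM per kilobase averaged over the 6 groups. Bst2 (tetherin, which holds budding virus at the cell surface) followed at 155, Ifi35 at 117, Rtp4 at 88.0 and Lgals3bp, a secreted glycoprotein, at 83.8. At the low end stood Mx1, a dynamin-like antiviral GTPase, at 2.86 and Ifi44 at 1.31 CPM per kilobase. Apart from the second Gbp6 row, each gene was above the floor of 3 counts in all libraries that list it.

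By role, the de novo libraries were highest for both the signalling genes and the RNA-directed effectors. The 3 signalling genes (Stat2, Usp18 and Isg15) had mean log2 CPM of 6.12, 6.79 and 6.62 in KO and 6.91 and 6.70 in WT pre-Tregs, 7.36 and 7.43 in KO and 7.39 and 7.47 in WT de novo Tregs, and 6.54 and 6.69 in KO and 6.61 and 6.22 in WT splenic Tregs. The 10 RNA-directed effectors had 5.32, 5.51 and 5.64 in KO and 5.84 and 5.51 in WT pre-Tregs, 6.20 and 6.24 in KO and 5.92 and 6.10 in WT de novo Tregs, and 5.34 and 5.35 in KO and 5.18 and 4.72 in WT splenic Tregs. The 3 ADP-ribosylation genes had 7.02, 6.54 and 7.25 in KO and 7.44 and 7.36 in WT pre-Tregs, and 6.78 and 7.01 in KO and 7.05 and 7.09 in WT de novo Tregs. For them the WT de novo libraries were below the WT pre-Treg libraries, and the KO stages overlapped. These means were not tested.

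Among the other antiviral effectors, Trim30a, which restrains NF-kB signalling and some viruses, had 147, 114 and 153 CPM in KO and 220.02 and 187 in WT pre-Tregs. It had 139.8 and 148 CPM in KO and 165 and 163 in WT de novo Tregs, and 130.4 and 128 CPM in KO and 132 and 122 in WT splenic Tregs; its reads may be shared with Trim30d. Lgals3bp had 203, 295 and 236 CPM in KO and 273 and 234 in WT pre-Tregs, and 251 and 246 in KO and 261 and 263 in WT de novo Tregs. Its genotypes overlapped in pre-Tregs.

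**Figure D1:**
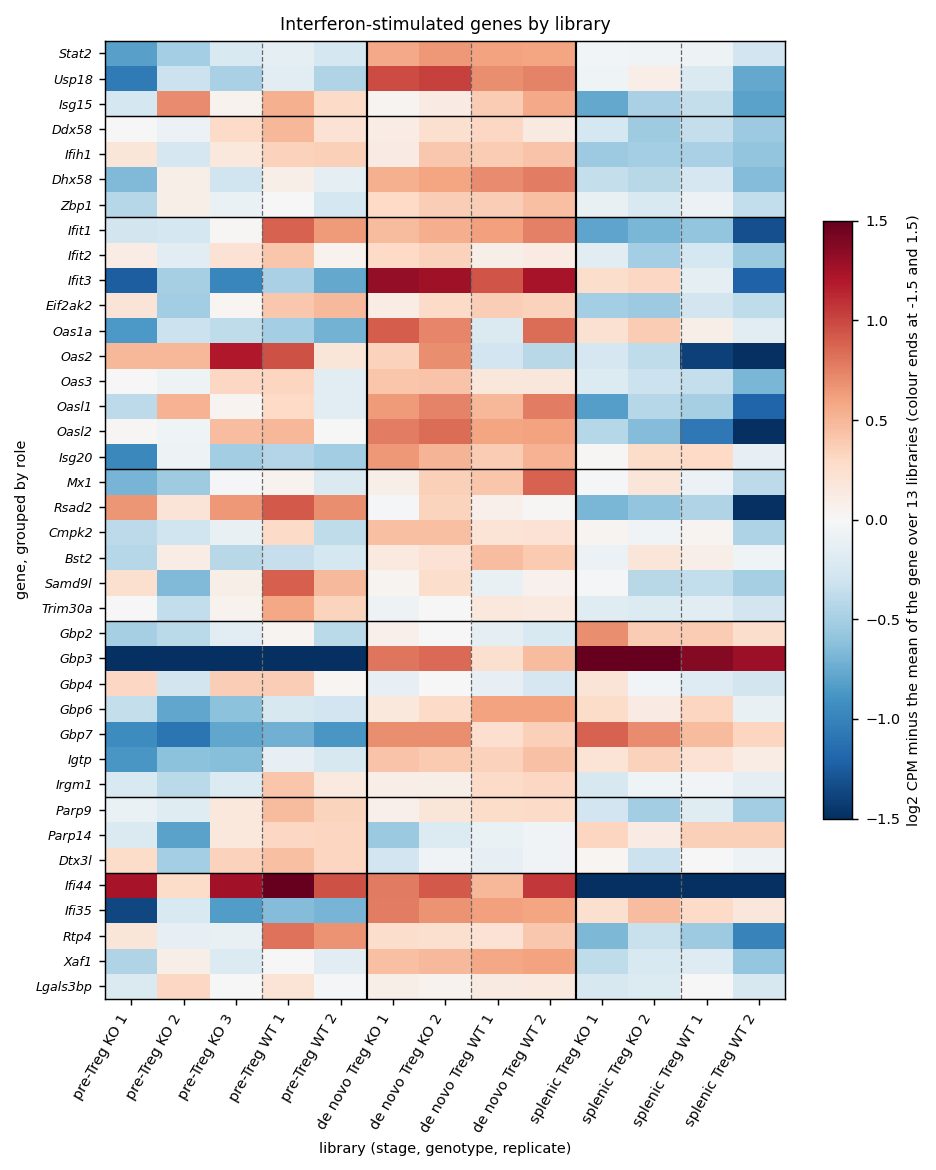
Log2 CPM of 38 interferon-stimulated genes (rows, grouped by role) in the 13 libraries (columns), each minus the gene's mean over all libraries; colour ends at −1.5 and 1.5. Most rows are red in the de novo columns and blue in the splenic ones, Gbp3 runs from blue in pre-Tregs to red in spleen, and Ifi44 is blue in all 4 splenic libraries.

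The mean log2 CPM over 39 rows (the set mean, over the 38 genes and the second Gbp6 row) was highest in de novo Tregs of both genotypes. It was 5.80, 5.86 and 6.03 in KO and 6.29 and 6.04 in WT pre-Tregs, 6.43 and 6.51 in KO and 6.42 and 6.49 in WT de novo Tregs, and 5.98 and 5.95 in KO and 5.93 and 5.61 in WT splenic Tregs. The KO libraries thus lay below both WT libraries in pre-Tregs, overlapped them in de novo Tregs and lay above both in splenic Tregs. Group means were 5.90 ± 0.12 (SD, n = 3) in KO and 6.17 ± 0.18 (n = 2) in WT pre-Tregs, a difference of -0.27. They were 6.47 ± 0.06 in KO and 6.45 ± 0.05 in WT de novo Tregs (n = 2 each), a difference of 0.02, and 5.96 ± 0.02 in KO and 5.77 ± 0.23 in WT splenic Tregs (n = 2 each), a difference of 0.19. The splenic difference was 0.03 without WT replicate 2 and 0.35 without WT replicate 1, and in pre-Tregs it was -0.14 without WT replicate 1. No test was run on the set mean.

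Replicates of the same genotype differed across the genes, in WT and in KO cells. In spleen, WT replicate 2 was below WT replicate 1 for 37 of 38 genes, with a median of -0.26 on the log2 scale, against a median of 0 over all genes. In pre-Tregs, WT replicate 2 was below WT replicate 1 for 34 of 38, with a median of -0.24. In KO pre-Tregs, replicate 3 was below replicate 1 for 6 of 38 genes, with a median of 0.25. It was below replicate 2 for 13 of 38, with a median of 0.28, while replicates 1 and 2 differed by a median of -0.04. The 2 KO splenic libraries differed for the genes by a median of -0.03, with replicate 2 below replicate 1 for 21 of 38. The de novo pairs differed by medians of 0.07 in KO and 0.03 in WT cells.

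**Figure D2:**
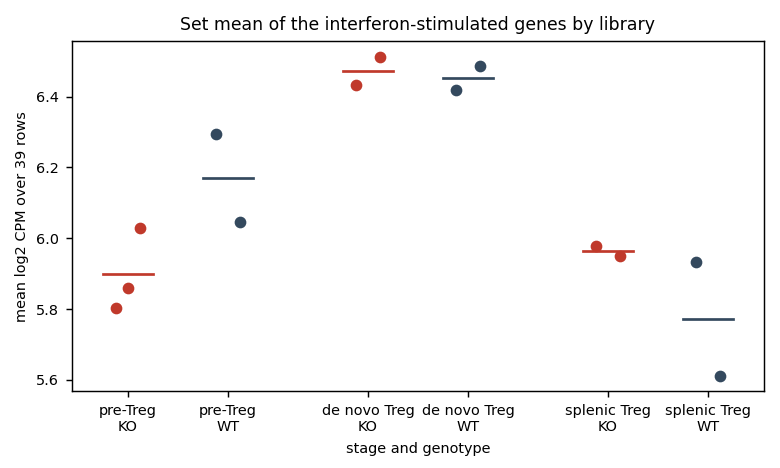
Mean log2 CPM over the 39 rows of interferon-stimulated genes (vertical axis) by stage and genotype (horizontal axis); points are libraries and bars group means. De novo libraries lie between 6.42 and 6.51, above the other stages, and the 2 WT splenic libraries are 5.93 and 5.61.

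In pre-Tregs most of the genes had lower values in KO than in WT cells, but none passed the test. edgeR's quasi-likelihood test with Benjamini-Hochberg adjustment over 14746 genes called 0 of 39 (the 38 genes and Mx2) at an adjusted p under 0.05, and it called 0% of all genes. The log2 fold change of KO over WT was below 0 for 32 of 39, with a median of -0.24 against 0.03 over all genes tested. At an unadjusted p under 0.05 there were 7 of the 39 genes, all with lower values in KO, against 6.57% of all genes, while DESeq2 called 1 of the 38 (Mx2 left out) and 88 of all genes. The common biological coefficient of variation was 0.284, against 0.0939 in de novo and 0.131 in splenic Tregs.

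Ifit1, which binds viral RNA lacking the host cap methylation, had 142, 143 and 173 CPM in KO pre-Tregs, against 317 and 267 in WT pre-Tregs. Every KO library was below both WT libraries, with a log2 fold change of -0.92 ± 0.18 (SE) and an edgeR adjusted p of 0.483. DESeq2 gave an adjusted p of 0.0054 and an edgeR fit with the spread of all stages 0.042, within a range of 0.0054 to 1.00 over the alternatives. Rtp4, an interferon-induced chaperone-like protein, had 147, 119 and 120.2 CPM in KO and 228 and 206 in WT pre-Tregs, again without overlap (log2 fold change -0.74 ± 0.18, edgeR adjusted p 0.597).

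The GTPases Igtp and Irgm1, which act on vacuoles that hold pathogens, also lay apart in pre-Tregs. Igtp had 239, 287 and 283 CPM in KO and 403 and 373 in WT pre-Tregs, and Irgm1 187, 166 and 190.4 in KO and 293 and 242 in WT pre-Tregs. Their log2 fold changes were -0.51 ± 0.17 and -0.55 ± 0.17, and both had an edgeR adjusted p of 0.720. Samd9l, Trim30a and Parp9 were the other genes with an unadjusted p under 0.05, at log2 fold changes of -0.76, -0.54 and -0.43. Parp9 and Dtx3l, partners in an ADP-ribosylation complex, overlap in the annotation, so their reads may be shared.

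Mx2, measured in pre-Tregs only, had 13.6, 15.5 and 16.2 CPM in KO and 23.1 and 19.6 in WT pre-Tregs, scaled within that table (log2 fold change -0.50 ± 0.23, edgeR adjusted p 0.720). The 8 markers of plasmacytoid dendritic cells, cells that make much type I interferon, summed to 415, 270.4 and 309.6 CPM in KO and 175 and 239 in WT pre-Tregs. Most of that came from Ly6d, with 265, 71.3 and 153 CPM in KO and 27.9 and 86.0 in WT, and from Pacsin1, while the defining marker Siglech was at 1.15, 0.101 and 1.14 CPM in KO and 0.508 and 0 in WT pre-Tregs. The 8 thymic stroma markers summed to 212, 214 and 226 CPM in KO and 194.8 and 187 in WT pre-Tregs, again mostly Pecam1, with Psmb11 and Pdgfra at 0. The part of these cells in the values was not tested.

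**Figure D3:**
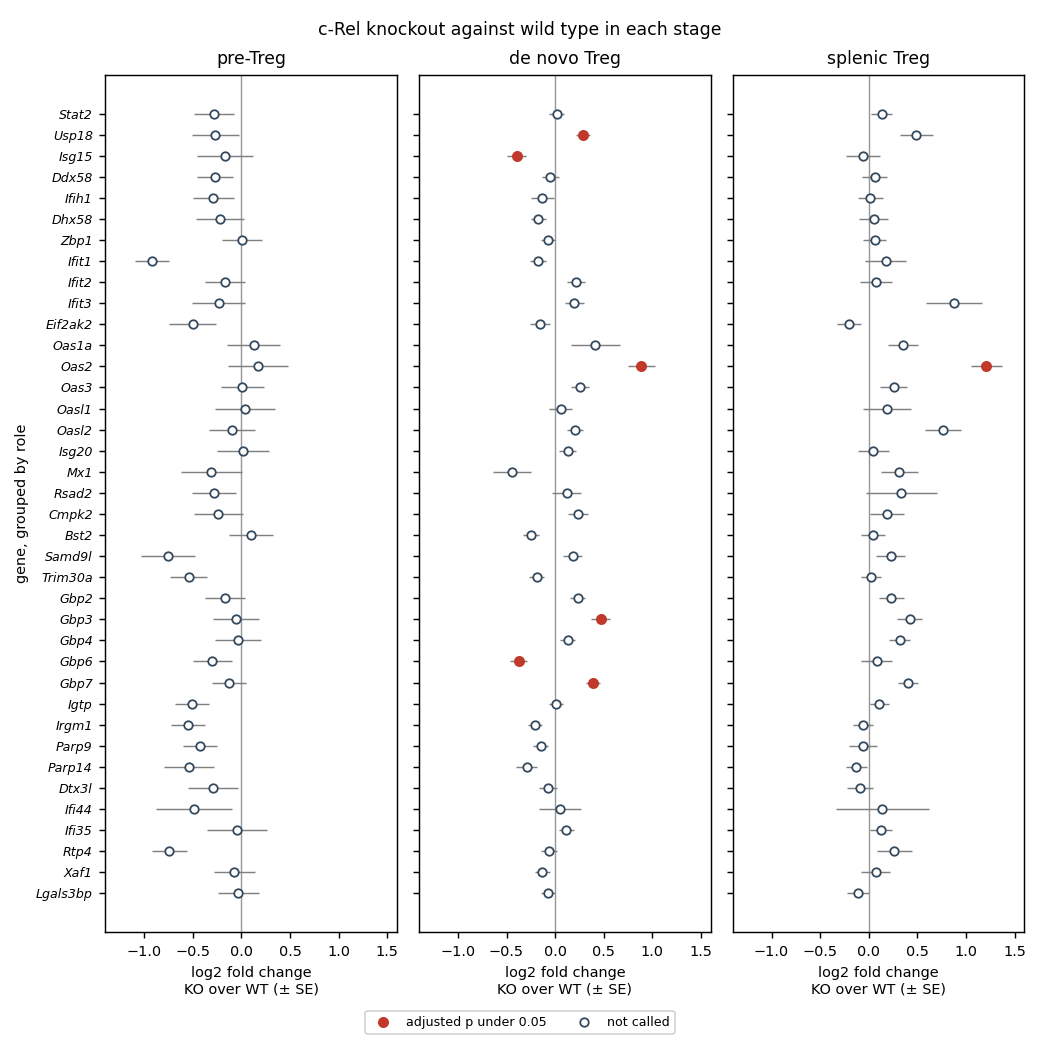
Log2 fold change of KO over WT (horizontal axis, ± SE) of 38 interferon-stimulated genes in pre-Tregs, de novo Tregs and splenic Tregs; filled red points had an edgeR adjusted p under 0.05. Points lie mostly left of 0 in pre-Tregs, on both sides in de novo Tregs with 6 called, and mostly right of 0 in splenic Tregs with Oas2 called.

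In de novo Tregs, 6 of 38 genes differed between the genotypes, in both directions. Oas2, Gbp7, Gbp3 and Usp18 were higher in KO, 4 of 38, where edgeR called 2.92% of all 11855 genes higher. Gbp6 and Isg15 were lower in KO, 2 of 38, where 3.54% of all genes were called lower. The median log2 fold change of the 38 genes was 0.01, against -0.003 over all genes, and 18 of 38 had an unadjusted p under 0.05, against 18.3% of all genes.

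Oas2 (chr5:120730333-120749853, minus strand in GRCm38), a synthase of the short oligoadenylates that switch on RNase L, had 34.5 and 44.4 CPM in KO de novo Tregs, against 22.2 and 20.4 in WT de novo Tregs. Both KO libraries were above both WT libraries, at a log2 fold change of 0.89 ± 0.14 (edgeR adjusted p 0.00261). Its neighbour Oas3 (chr5:120753098-120777661, minus strand) had 73.0 and 73.8 CPM in KO and 61.4 and 61.5 in WT de novo Tregs, a log2 fold change of 0.26 ± 0.09 that did not pass (edgeR adjusted p 0.135). Reads of the Oas genes, which are alike in sequence, may be split among them.

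Gbp7 (chr3:142530342-142550149, plus strand) and Gbp3 (chr3:142560026-142573209, plus strand), guanylate-binding proteins that coat pathogen vacuoles, are neighbours on chromosome 3. Gbp7 had 430.4 and 431 CPM in KO and 317 and 341 in WT de novo Tregs (log2 fold change 0.39 ± 0.07, edgeR adjusted p 0.00849). Gbp3 had 93.6 and 96.5 CPM in KO and 63.1 and 74.2 in WT de novo Tregs (log2 fold change 0.47 ± 0.10, edgeR adjusted p 0.0163). The genotypes did not overlap for either gene, and since the Gbp genes resemble each other their counts are uncertain where reads could be split. Gbp2, on the same chromosome, had 142 and 135 CPM in KO and 121 and 115 in WT de novo Tregs (log2 fold change 0.23 ± 0.08, edgeR adjusted p 0.144).

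Gbp6 (chr5:105270702-105293698, minus strand), which lies on chromosome 5, was called in the other direction. It had 74.4 and 81.2 CPM in KO de novo Tregs, against 101 and 101 in WT de novo Tregs (log2 fold change -0.38 ± 0.09, edgeR adjusted p 0.0255). Gbp4, also on chromosome 5, had 298 and 324 CPM in KO and 298 and 272 in WT de novo Tregs, at a log2 fold change of 0.13 ± 0.08 and an edgeR adjusted p of 0.460.

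Usp18 and Isg15 belong to the same system: Isg15 is a ubiquitin-like protein that is joined to other proteins, and Usp18 removes it and also dampens signalling at Ifnar2. Usp18 (chr6:121245906-121270917, plus strand) had 320.5 and 332 CPM in KO and 264 and 273 in WT de novo Tregs, so it was higher in both KO libraries (log2 fold change 0.28 ± 0.07, edgeR adjusted p 0.0414). Isg15 (chr4:156199424-156200818, minus strand) had 61.7 and 65.6 CPM in KO and 78.3 and 89.0 in WT de novo Tregs, so it was lower in both KO libraries (log2 fold change -0.39 ± 0.10, edgeR adjusted p 0.0352). Stat2, which carries the type I signal, had 224 and 237 CPM in KO and 229 and 227 in WT de novo Tregs, with a log2 fold change of 0.01 ± 0.07 (edgeR adjusted p 0.953).

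None of the 4 sensors (Ddx58, Ifih1, Dhx58 and Zbp1), the 6 other antiviral effectors or the 3 ADP-ribosylation genes was called by edgeR in de novo Tregs, with 1, 4 and 1 of them at an unadjusted p under 0.05. Zbp1, the sensor of left-handed nucleic acid and the most abundant of the 4, had 318 and 334 CPM in KO and 335 and 353 in WT de novo Tregs. The number of genes called was 3 without KO replicate 1, 6 without KO replicate 2, 2 without WT replicate 1 and 4 without WT replicate 2, where the same fits called 690, 761, 527 and 543 of all genes, against 766 with every library. Each of these fits leaves 1 library in a genotype, which is assumed to vary like the pair of the other genotype. Oas2 had an adjusted p under 0.05 in each, with a highest value of 0.014, and Usp18 in none. Gbp7 and Gbp3 lost it without WT replicate 1, Gbp6 without KO replicate 1, WT replicate 1 or WT replicate 2, and Isg15 without KO replicate 1 or WT replicate 2. WT replicate 1 is the library with 111 CPM of erythroid and platelet markers. The 8 thymic stroma markers summed to 326 and 329.6 CPM in KO and 243 and 243 in WT de novo Tregs, without overlap. Pecam1 made up most of it, with 294 and 298 CPM in KO and 223 and 226 in WT, while Krt5, Psmb11 and Pdgfra were at 0 in all 4 libraries. The 8 B and plasma cell markers summed to 39.6 and 35.7 CPM in KO and 34.3 and 31.9 in WT de novo Tregs. The part of these markers' cells in the values was not tested. With the larger spread shared by all stages, 0 of 38 were called, and Oas2 had an adjusted p of 0.27 (range over the alternatives 4.1e-06 to 0.27). How many of all genes that fit called is not given here, so the 0 need not be particular to these genes.

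**Figure D4:**
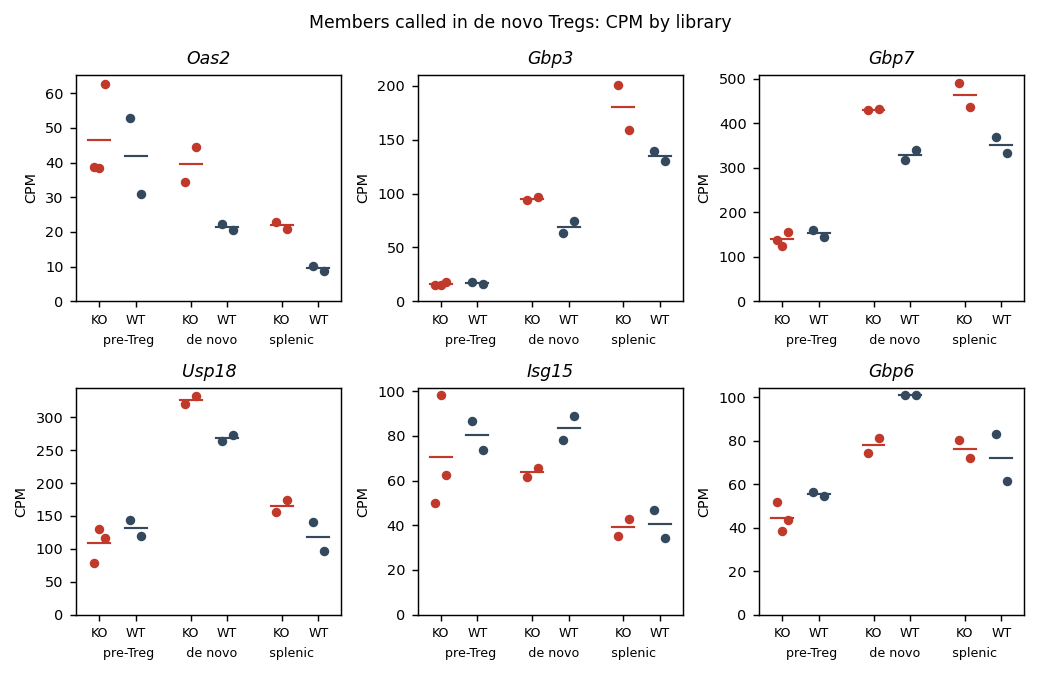
CPM (vertical axis, from 0) of the 6 genes called in de novo Tregs, by stage and genotype; points are libraries and bars group means. Oas2, Gbp3, Gbp7 and Usp18 are higher in both KO than in both WT de novo libraries, and Isg15 and Gbp6 lower.

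In splenic Tregs, Oas2 was the 1 gene of 38 that passed, and it was higher in KO, where edgeR called 0.612% of all 12264 genes higher. It called 0 of 38 lower, where 0.758% of all genes were lower. Fold changes lay above 0 for 31 of 38, with a median of 0.13 against 0.001 over all genes, and 7 of 38 had an unadjusted p under 0.05, all of them higher in KO, against 14.3% of all genes.

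Oas2 had 22.9 and 20.9 CPM in KO splenic Tregs, against 10.3 and 8.70 in WT splenic Tregs. Both KO libraries were above both WT libraries, and the log2 fold change was 1.21 ± 0.16 (edgeR adjusted p 0.0211). In pre-Tregs the genotypes overlapped, with 38.7, 38.4 and 62.7 CPM in KO and 52.7 and 30.9 in WT pre-Tregs. Oasl2, a relative of the Oas enzymes, had 38.1 and 32.8 CPM in KO and 24.4 and 17.3 in WT splenic Tregs, without overlap but short of the threshold (log2 fold change 0.77 ± 0.18, edgeR adjusted p 0.101).

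Gbp7 had 491 and 436 CPM in KO and 369 and 333 in WT splenic Tregs, and Gbp3 201 and 159 in KO and 139 and 129.98 in WT splenic Tregs. Both were higher in every KO library, at log2 fold changes of 0.40 ± 0.10 and 0.42 ± 0.13 with edgeR adjusted p of 0.118 and 0.194. Usp18 had 157 and 175 CPM in KO and 140.2 and 96.2 in WT splenic Tregs (log2 fold change 0.49 ± 0.17, edgeR adjusted p 0.252). Ifit3, a partner of Ifit1, had 62.8 and 64.9 CPM in KO and 47.1 and 22.5 in WT splenic Tregs, with the WT libraries far apart (log2 fold change 0.88 ± 0.29, edgeR adjusted p 0.215). The genes called lower in KO de novo Tregs overlapped in spleen: Isg15 had 35.3 and 42.8 CPM in KO and 46.8 and 34.4 in WT, and Gbp6 80.4 and 72.2 in KO and 83.0 and 61.4 in WT splenic Tregs.

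The splenic count turned on single libraries: 10 genes were called without KO replicate 1 (9 higher, 1 lower), 8 without KO replicate 2, 5 without WT replicate 1 and 1 without WT replicate 2. The same fits called 2508, 1548, 278 and 220 of all genes, against 168 with every library. Each leaves 1 library in a genotype, which is assumed to vary like the pair of the other genotype; Oas2 was called in each. The block of replicate numbers, DESeq2 and the unfiltered fit each called 3, all higher, where they called 361, 526 and 475 of all genes, and the spread shared by all stages called 0 (60 of all genes). The 13 myeloid and dendritic cell markers summed to 34.0 and 6.61 CPM in KO and 43.3 and 83.4 in WT splenic Tregs, with Lyz2 and Csf1r as the most abundant of them, and Cd14 was at 0 in both KO libraries. The 8 B and plasma cell markers summed to 96.9 and 62.3 CPM in KO and 42.0 and 52.0 in WT splenic Tregs, mostly Cd79b. The 8 thymic stroma markers summed to 311 and 282 CPM in KO and 257 and 233 in WT, mostly Pecam1, with Krt5, Psmb11 and Pdgfra at 0. The 8 CD8 T and NK cell markers summed to 43.4 and 31.2 CPM in KO and 51.3 and 50.6 in WT. The genotypes did not overlap for any of these 4 lists, and the part of these cells in the values was not tested.

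Over all stages together, with 1 genotype term, edgeR called 0 of 38 where it called 0.85% of all 13058 genes, with 8 of 38 at an unadjusted p under 0.05 (10.8% of all genes) and 1 called by DESeq2 (327 of all genes). Oas2 had a log2 fold change of 0.70 ± 0.19 (edgeR adjusted p 0.126, with a range over the alternatives of 0.013 to 0.38). Irgm1 followed at -0.30 ± 0.09 (edgeR adjusted p 0.20). Oas2 was called without KO pre-Treg replicate 2 and without WT pre-Treg replicate 1.

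Whether the genotype effect differed between stages was tested directly. The joint test over the 3 stages called 0 of 38, where 0.161% of all genes were called, with 10 of 38 at an unadjusted p under 0.05 (10.5% of all genes) and 3 called by DESeq2 (504 of all genes). Splenic against de novo Tregs gave 0 of 38, where 0.00766% of all genes were called, with 0 at an unadjusted p under 0.05 (4.52% of all genes) and 0 by DESeq2 (110 of all genes). A pair of contrasts was added after the values were seen. De novo Tregs against pre-Tregs gave 0 of 38 (0.0842% of all genes), with 6 at an unadjusted p under 0.05 (10.2% of all genes) and 0 by DESeq2 (213 of all genes). Splenic Tregs against pre-Tregs gave 0 of 38 (0.214% of all genes), with 12 at an unadjusted p under 0.05 (12.01% of all genes) and 3 by DESeq2 (416 of all genes).

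In that last contrast the difference was above 0 for 36 of 38 genes, with a median of 0.41 against -0.03 over all genes. The log2 fold change of KO over WT was higher in splenic Tregs than in pre-Tregs by 1.02 ± 0.24 for Rtp4 (edgeR adjusted p 0.0897) and by 1.11 ± 0.27 for Ifit1 (edgeR adjusted p 0.0973). Without KO pre-Treg replicate 2, 3 of 38 and 324 of all genes were called in this contrast, and without KO pre-Treg replicate 1, 1 of 38 and 334 of all genes, against 28 of all genes with every library. Both contrasts with pre-Tregs use the same pre-Treg libraries.

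De novo Tregs held more of many of these transcripts than pre-Tregs did, in both genotypes. In KO cells, 17 of 38 genes were higher and 0 lower in de novo Tregs, where edgeR called 15.4% of all 13058 genes higher and 17% lower. In WT cells, 14 of 38 were higher and 2 lower, where 16.1% of all genes were called higher and 14.7% lower. Of the genes called higher, 13 were shared, 76.5% of those in KO and 92.9% of those in WT. The median log2 fold change was 0.40 in KO and 0.07 in WT cells, against -0.06 and -0.002 over all genes. B and plasma cell markers summed to 32.0 to 39.6 CPM in de novo and 8.27 to 26.6 in pre-Tregs, and thymic stroma markers (mostly Pecam1) to 243 to 330 CPM in de novo and 187 to 226 in pre-Tregs. CD8 T and NK cell markers summed to 44.6 to 58.3 CPM in de novo and 70.6 to 125 in pre-Tregs. The part of these cells in the values was not tested.

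Gbp3 changed most by adjusted p. It had 93.6 and 96.5 CPM in de novo against 15.4, 14.6 and 18.2 in pre-Tregs of KO mice (log2 fold change 2.56 ± 0.15, edgeR adjusted p 2.45e-07), and 63.1 and 74.2 CPM in de novo against 18.1 and 15.6 in pre-Tregs of WT mice (2.02 ± 0.17, edgeR adjusted p 1.37e-05). Gbp7 had 430.4 and 431 CPM in de novo against 138, 124 and 155 in pre-Tregs of KO mice, and 317 and 341 against 161 and 145 in WT mice, at log2 fold changes of 1.63 ± 0.13 and 1.11 ± 0.14. In neither gene did the stages overlap.

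Ifit3 had 129.96 and 126 CPM in de novo against 22.2, 36.8 and 26.4 in pre-Tregs of KO mice (log2 fold change 2.16 ± 0.26, edgeR adjusted p 8.23e-05), and 100.4 and 123 against 37.3 and 30.6 in WT mice (1.72 ± 0.30, edgeR adjusted p 0.00179). Usp18 had 320.5 and 332 CPM in de novo against 78.3, 131 and 116 in pre-Tregs of KO mice, and 264 and 273 against 145 and 119.5 in WT mice, at log2 fold changes of 1.59 ± 0.20 and 1.02 ± 0.23. Stat2 had 224 and 237 CPM in de novo against 85.5, 106 and 129 in pre-Tregs of KO mice, and 229 and 227 against 137 and 126 in WT mice (1.11 ± 0.15 and 0.79 ± 0.17). The signalling pair Stat2 and Usp18 was therefore called higher in both genotypes, while Isg15 was called in neither (-0.15 in KO and 0.06 in WT).

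Igtp had 589 and 575 CPM in de novo against 239, 287 and 283 in pre-Tregs of KO mice (log2 fold change 1.11 ± 0.12), and 558 and 598 against 403 and 373 in WT mice (0.58 ± 0.13). Ifi35 had 300.1 and 282 CPM in de novo against 68.3, 150.4 and 98.6 in pre-Tregs of KO mice (1.46 ± 0.23), and 271 and 267 against 112 and 109 in WT mice (1.28 ± 0.26). Gbp6, Dhx58, Zbp1, Oas1a, Isg20 and Xaf1 completed the shared 13, with log2 fold changes of 0.46 to 1.32 in KO and 0.53 to 1.02 in WT cells. In KO alone Ifit1, Cmpk2, Oasl2 and Irgm1 passed, and in WT alone Bst2; the genotypes' changes were not called different for any of the 38 genes.

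The genes called lower in de novo Tregs, in WT cells, were Oas2 (-0.97 ± 0.28, edgeR adjusted p 0.0207) and Samd9l, a regulator of translation and endosomes (-0.73 ± 0.25, edgeR adjusted p 0.0459). Oas2 had 22.2 and 20.4 CPM in WT de novo Tregs, against 52.7 and 30.9 in WT pre-Tregs. Samd9l had 120.2 and 136 CPM in WT de novo Tregs, against 242 and 182 in WT pre-Tregs. Of the 3 ADP-ribosylation genes, edgeR called 0 in either genotype, with 0 at an unadjusted p under 0.05. Parp14, a large enzyme of that family, had 74.7 and 95.2 CPM in de novo against 94.6, 63.1 and 122 in pre-Tregs of KO mice, and 103 and 105 against 136 and 137 in WT mice (-0.13 ± 0.21 and -0.39 ± 0.23).

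Scaling by library totals in place of TMM moved the median of all genes by -0.20 in KO and -0.16 in WT cells. With it, 13 of 38 genes were higher and 0 lower in KO, and 13 higher and 5 lower in WT cells. The shares of all genes called with this scaling are not given here, so these counts need not be particular to these genes. In WT cells, 8 genes were called without WT pre-Treg replicate 1, 6 without WT pre-Treg replicate 2, 10 without WT de novo replicate 1 and 6 without WT de novo replicate 2, where the same fits called 1545, 1775, 1690 and 1274 of all genes, against 4015 with every library. In KO cells 11 were called without KO de novo replicate 1 and 10 without KO de novo replicate 2, and 22 (19 higher, 3 lower) without KO pre-Treg replicate 2, where the fits called 1960, 1860 and 6534 of all genes, against 4228. A group left with 1 library is assumed to vary like the other groups in these fits. Gbp3, Gbp7, Ifit3, Gbp6 and Ifi35 were called in each of the alternatives run for both genotypes.

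Splenic Tregs held less of many of these transcripts than thymic de novo Tregs did. In KO cells 16 of 38 genes were lower in spleen and 1 higher, where edgeR called 6.39% of all genes lower and 6.48% higher. In WT cells 17 of 38 were lower and 1 higher, where 3.95% of all genes were called lower and 3.5% higher. The shared lower genes numbered 14, 87.5% of those in KO and 82.4% of those in WT. The median log2 fold change was -0.52 in KO and -0.63 in WT cells, against 0 and 0.002 over all genes. This comparison and the one before it share the de novo libraries. Plasmacytoid dendritic cell markers summed to 137 to 172 CPM in splenic and 198 to 223 in de novo Tregs, and B and plasma cell markers to 42.0 to 96.9 CPM in splenic and 32.0 to 39.6 in de novo Tregs, both without overlap. In pre-Tregs the plasmacytoid sum came mostly from Ly6d and Pacsin1 and hardly from Siglech, so such a sum need not track these cells. Its make-up in splenic and de novo Tregs is not given here. The part of these cells in the values was not tested.

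Of the 3 signalling genes, 2 were lower in KO and 3 in WT cells, and of the 10 RNA-directed effectors, 7 were lower in KO and 6 in WT cells. Of the 4 sensors, Ddx58 (RIG-I), Ifih1 (MDA5) and Dhx58 (LGP2) were lower in both genotypes and Zbp1 in WT. Ifih1 had 22.8 and 23.4 CPM in splenic against 36.1 and 44.0 in de novo Tregs of KO mice (log2 fold change -0.79 ± 0.17, edgeR adjusted p 0.00886), and 23.6 and 22.1 against 43.1 and 44.6 in WT mice (-0.94 ± 0.17, edgeR adjusted p 0.00498). Dhx58 had 76.7 and 73.5 CPM in splenic against 143 and 148 in de novo Tregs of KO mice, and 82.5 and 62.7 against 160.3 and 167 in WT mice (-0.95 ± 0.21 and -1.17 ± 0.21). The stages did not overlap for either sensor.

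Ifit1 had 98.9 and 106 CPM in splenic against 238 and 251 in de novo Tregs of KO mice (log2 fold change -1.25 ± 0.21, edgeR adjusted p 0.00187), and 113 and 68.5 against 262 and 291 in WT mice (-1.60 ± 0.21, edgeR adjusted p 8.03e-04). Oasl2 had 38.1 and 32.8 CPM in splenic against 87.5 and 91.7 in de novo Tregs of KO mice (-1.34 ± 0.22, edgeR adjusted p 0.00188), and 24.4 and 17.3 against 77.3 and 78.1 in WT mice (-1.90 ± 0.22, edgeR adjusted p 4.42e-04). Ifit3, Oas3 and Oasl1 were lower in both genotypes as well, at log2 fold changes of -1.01, -0.68 and -1.31 in KO and -1.68, -0.68 and -1.45 in WT cells. Ifit3 may share reads with its near copy Ifit3b, and Ifit1 with Ifit1bl1.

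The fall of Ifi44, an interferon-induced cytoplasmic protein, had the greatest size of the 38. It had 1.32 and 1.03 CPM in splenic against 9.41 and 10.4 in de novo Tregs of KO mice (log2 fold change -3.07 ± 0.41, edgeR adjusted p 5.01e-04), and 1.05 and 1.08 against 7.74 and 11.4 in WT mice (-3.16 ± 0.41, edgeR adjusted p 8.24e-04). Rtp4 had 81.0 and 103 CPM in splenic against 156 and 153 in de novo Tregs of KO mice, and 89.0 and 64.6 against 151 and 171 in WT mice (-0.74 ± 0.18 and -1.07 ± 0.18). Stat2, Usp18, Parp9 and Xaf1 completed the shared 14, at -0.53 to -0.98 in KO and -0.62 to -1.18 in WT cells. Eif2ak2 (the kinase PKR) and Ifit2 passed in KO alone and Oas2, Isg15 and Zbp1 in WT alone, but no gene's change was called different between the genotypes.

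Of the 7 GTPases tested, edgeR called 0 lower in spleen in either genotype, with 2 in KO and 4 in WT cells at an unadjusted p under 0.05 in either direction. Gbp3 was called higher in both, with 201 and 159 CPM in splenic against 93.6 and 96.5 in de novo Tregs of KO mice (log2 fold change 0.92 ± 0.16, edgeR adjusted p 0.00252), and 139 and 129.98 against 63.1 and 74.2 in WT mice (0.97 ± 0.16, edgeR adjusted p 0.00311). Gbp2 had log2 fold changes of 0.51 ± 0.17 in KO (edgeR adjusted p 0.0736) and 0.51 ± 0.17 in WT cells (edgeR adjusted p 0.0993). Igtp, at -0.13 and -0.22, and Gbp7, at 0.11 and 0.09, lay near 0. Of the 6 other antiviral effectors tested, such as Mx1 and Rsad2 (viperin, which makes a chain terminator of viral RNA), edgeR called 0, with 1 in KO and 4 in WT cells at an unadjusted p under 0.05. Bst2 had 108 and 131 CPM in splenic against 127 and 134 in de novo Tregs of KO mice, and 123 and 109.7 against 159 and 151 in WT mice (-0.12 ± 0.18 and -0.41 ± 0.18). Rsad2 had 11.2 and 11.9 CPM in splenic against 17.6 and 22.7 in de novo Tregs of KO mice, and 13.1 and 5.16 against 19.0 and 18.3 in WT mice (-0.81 ± 0.33 and -1.03 ± 0.33). The WT splenic libraries of Rsad2 were far apart.

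Leaving out 1 library lowered the number called in each case. In WT cells it was 7 without WT de novo replicate 1, 8 without WT de novo replicate 2, 12 without WT splenic replicate 1 and 5 without WT splenic replicate 2, where the fits called 257, 377, 315 and 262 of all genes, against 973 with every library. In KO cells it was 4 without KO de novo replicate 2 and 5 without KO de novo replicate 1, KO splenic replicate 1 or KO splenic replicate 2, where the fits called 619 to 1115 of all genes, against 1681. Each fit leaves 1 library in a group, which is assumed to vary like the other groups; Ifi44, Ifit1 and Oasl2 were called lower in all of these fits.

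**Figure D5:**
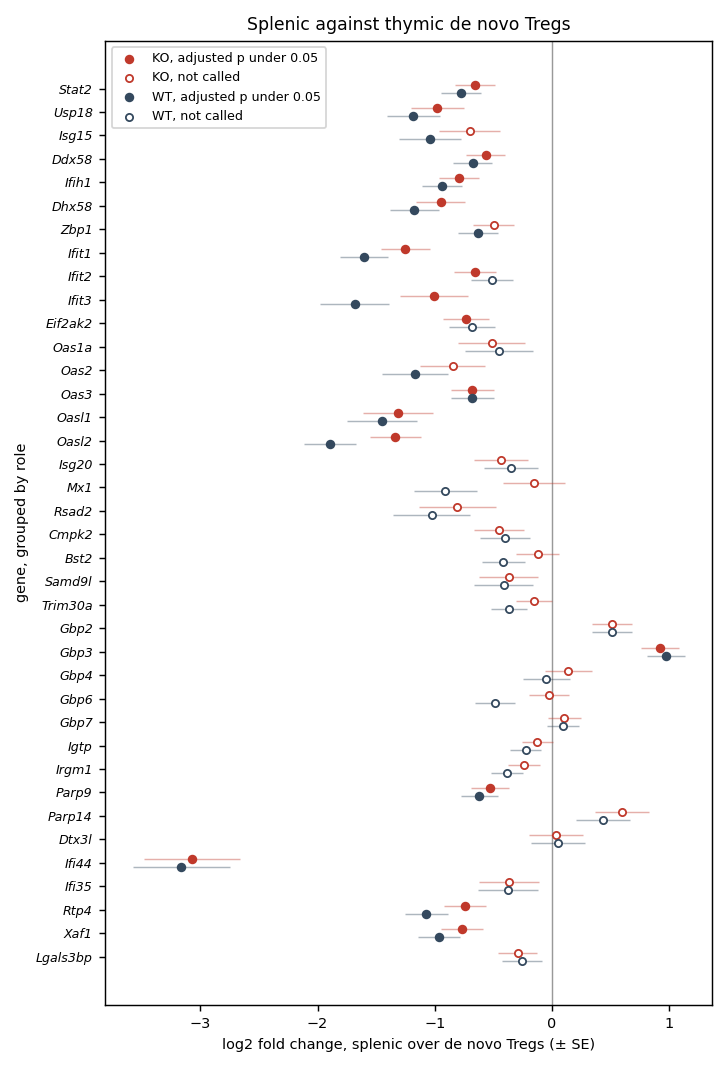
Log2 fold change of splenic over de novo Tregs (horizontal axis, ± SE) of 38 interferon-stimulated genes in KO (red, upper) and WT (dark, lower); filled points had an edgeR adjusted p under 0.05. Ifi44 lies near −3 in both genotypes, the sensors and RNA-directed effectors lie left of 0, and Gbp3 is the called gene right of 0.

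Of the pathway that controls these genes, the ligands were barely seen in the sorted cells. Of 11 ligand genes, 9 had 0 counts in all libraries (3 counts would be 0.0881 to 0.218 CPM, counting error only), and Ifnk had 1 count in 1 library. Ifng was tested: it had 3.22, 1.35 and 8.41 CPM in KO and 0.725 and 1.70 in WT pre-Tregs, with overlap (log2 fold change 1.82 ± 0.80, edgeR adjusted p 0.720). It had 5.96 and 10.3 CPM in KO and 1.83 and 2.79 in WT splenic Tregs (log2 fold change 1.81 ± 0.35, edgeR adjusted p 0.0535), without overlap, and 0.294 and 0.476 CPM in KO and 1.11 and 0.596 in WT de novo Tregs (-1.13 ± 0.62, edgeR adjusted p 0.389). Of the receptor genes, Ifnar1 had 213, 201 and 254 CPM in KO and 325 and 293 in WT pre-Tregs, without overlap and short of the threshold (log2 fold change -0.46 ± 0.18, edgeR adjusted p 0.720). Ifnar2 had log2 fold changes of KO over WT of -0.09 in pre-Tregs, -0.04 in de novo and -0.11 in splenic Tregs, and Ifngr1, of the type II receptor, 0.21, 0.30 and 0.52, with no call.

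Among 10 STAT and IRF factors, edgeR called 0 between genotypes in pre-Tregs and 0 in splenic Tregs (3 at an unadjusted p under 0.05 in each). The shares of all genes at that unadjusted p are given above for both stages. In KO de novo Tregs 1 was higher and 2 lower, where 2.92% of all genes were called higher and 3.54% lower. Irf5 had 11.8 and 14.3 CPM in KO and 32.7 and 34.6 in WT de novo Tregs (log2 fold change -1.36 ± 0.14, edgeR adjusted p 1.29e-04), Irf4 16.9 and 20.6 in KO and 39.8 and 38.2 in WT (-1.05 ± 0.13, edgeR adjusted p 4.68e-04), and Irf8 129 and 144 in KO and 81.7 and 87.6 in WT (0.69 ± 0.09, edgeR adjusted p 8.58e-04). Irf9 was at -0.49, -0.01 and 0.05 in pre-Tregs, de novo and splenic Tregs. Irf7, which amplifies the response, was at -0.30, -0.17 and 0.24, none called. The feedback inhibitors Socs1 and Socs3, which block the kinases, were higher in KO de novo Tregs (0.59 ± 0.09 and 0.64 ± 0.11). They were 2 of 8 on their list, where 2.92% of all genes were called higher. Over all stages together Irf8 (0.76 ± 0.15, edgeR adjusted p 0.0301) and Socs3 (0.54 ± 0.08, edgeR adjusted p 0.00549) were also called higher in KO. Irf8 was at 0.94 in pre-Tregs and 0.63 in splenic Tregs, and Socs3 at 0.63 and 0.37, not called there.

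Between stages more of these factors were called. In de novo against pre-Tregs, 9 of 10 STAT and IRF factors were higher and 1 lower (Irf4) in KO cells, and 8 higher and 0 lower in WT cells, where 15.4% of all genes were called higher and 17% lower in KO, and 16.1% higher and 14.7% lower in WT cells. In splenic against de novo Tregs, Irf7 had 221 and 267 CPM in splenic against 466 and 455 in de novo Tregs of KO mice (-0.92 ± 0.23, edgeR adjusted p 0.0186), and 231 and 182 against 485 and 549 in WT mice (-1.33 ± 0.23, edgeR adjusted p 0.00397). Irf9 was called lower in spleen in both genotypes (-0.64 ± 0.12 in KO and -0.70 ± 0.12 in WT).

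Of 41 further interferon-stimulated genes outside the 39, edgeR called 0 between genotypes in pre-Tregs, with 8 at an unadjusted p under 0.05. The share of all genes at that threshold in pre-Tregs is given above. In de novo Tregs 1 of 40 tested was lower in KO, Ifi27l2a, with 965 and 929 CPM in KO and 1184 and 1422 in WT (log2 fold change -0.46 ± 0.09, edgeR adjusted p 0.00870). There 3.54% of all genes were called lower. In splenic Tregs 1 of 41 was higher in KO, the immunity-related GTPase Iigp1, with 90.1 and 98.2 CPM in KO and 58.7 and 61.9 in WT (0.64 ± 0.11, edgeR adjusted p 0.0425). Of all genes, 0.612% were called higher in KO splenic Tregs. In de novo against pre-Tregs, 24 of 41 were higher and 2 lower in KO cells (15.4% and 17% of all genes), and 16 higher and 2 lower in WT cells (16.1% and 14.7% of all genes).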

How the data were processed

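The deposited values were raw counts per gene in 3 tables, 1 for each stage, each holding KO and WT libraries, that the authors made from their reads. The even counts of KO pre-Treg replicate 1 are described above. Per the submitters' processing notes, the tools included STAR 2.5.2, featureCounts, Subread 1.5.2, Picard 2.9.0, limma, FastQC and MultiQC, and the build was GRCm38. The annotation release and the strand setting were not given in the sources used here. Without a known strand setting, reads of overlapping genes cannot be told apart.

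The genes and lists were chosen with earlier results of these data known. Each of the 13 columns was matched to its sample by name, and 0 per-sample columns were left unused. Every gene of a table was tested after filterByExpr (minimum count 10, minimum total count 15) and TMM scaling, with edgeR 4.0.16 in R 4.3.3 (limma 3.58.1): the quasi-likelihood test, Benjamini-Hochberg adjustment over all genes tested, and a call at an adjusted p under 0.05. KO was compared with WT within each table. Stage comparisons and the differences between stages used 1 fit of the 13 libraries over the 22048 shared genes, of which 13058 were tested. The genotype term over all stages came from a separate fit of the same libraries and genes, with terms for genotype and stage. CPM used TMM library sizes over the shared genes, and set means used log2 CPM with a prior count of 2. Any of the 39 genes could be named; values per library were given for those called (up to 10 in a comparison), the most abundant of a role, and the leading genes where none was called. Of the pathway, up to 6 called genes in a comparison could be named, with Irf7, Irf9, Ifnar1, Ifnar2 and Ifngr1. A further gene of that rule is not reported here. Leading genes of comparisons without calls, neighbours of called genes and Ifng were chosen after their values were seen.

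Alternatives were DESeq2 1.42.0, other scaling, no count filter, a block of replicate numbers, the spread of all stages, a prior count of 0.5 for the set mean, and each library left out. Some of the fits were tested on simulated data, with changes larger than most reported here and the same spread for every gene. That test does not show how well smaller changes are found. Promoters were read with Python 3.11.15 (pandas 2.3.3) and figures drawn with matplotlib 3.10.9.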

Additional observations from a re-analysis of the deposited data

How the results depend on the processing

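Counts below are genes called, of the 38 found in all tables. A setting that calls more of all genes can also call more of these. Where the number of all genes called is not given above, a count is no result about these genes. Between genotypes, DESeq2 called 3 in splenic Tregs, 1 in pre-Tregs and 1 with all stages together, and 3 in each of the joint test of stages and splenic against pre-Tregs. The spread shared by all stages gave 1 in pre-Tregs, 0 in de novo and 0 in splenic Tregs. Fits without a count filter gave 3 in splenic Tregs and 2 for splenic against pre-Tregs.

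The labels do not state that replicate numbers pair the libraries. The same-numbered libraries' deviations correlated at -0.17 and -0.16 in pre-Tregs, -0.01 in de novo and -0.11 in splenic Tregs. In de novo and splenic Tregs the deviations within a genotype mirror each other, so both replicate numbers give the same value. These values cannot decide whether same-numbered libraries were handled together. With the replicate block, splenic Tregs gave 3, de novo Tregs 6 and pre-Tregs 0. A crossed replicate block, chosen after seeing the data, gave 6 in splenic Tregs, and how many of all genes it called is not given here. The block was not run for comparisons of stages, whose libraries come from separate tables. Scaling by library totals, also chosen after seeing the data, gave set mean differences of de novo minus pre-Tregs of 0.38 in KO and 0.13 in WT cells.

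Leaving out 1 library gave 2 to 6 in de novo Tregs, 1 to 10 in splenic Tregs, 0 to 1 over all stages and 0 to 3 for splenic against pre-Tregs. De novo against pre-Tregs ranged from 10 to 22 in KO and 6 to 10 in WT cells, and splenic against de novo Tregs from 4 to 5 in KO and 5 to 12 in WT cells. The set mean difference, KO minus WT, was -0.40 to -0.14 in pre-Tregs, -0.02 to 0.06 in de novo and 0.032 to 0.35 in splenic Tregs. De novo minus pre-Tregs was 0.52 to 0.64 in KO and 0.14 to 0.40 in WT cells, and splenic minus de novo Tregs -0.53 to -0.45 in KO and -0.83 to -0.50 in WT cells. The causes were not tested. Over the named genes, 911 values kept direction and call, 166 lost the call, 36 gained it and 0 reversed. In most of these fits a group holds 1 library, which is assumed to vary like the others, so a call there is no independent support. In pre-Tregs Ifit1, at -0.92, was not called.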
